A study of Homo sapiens with 16 samples.

Results

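The band 9p21 on the short arm of chromosome 9 holds the tumour suppressor genes CDKN2A and CDKN2B, their neighbour MTAP and, on the telomere side, MLLT3. They were described here through the Hi-C contacts of chr9:18-34 Mb in K562, an established human leukaemia cell line. The stretch was taken as 800 bins of 20 kb, out of 154795 in the genome (build hg19), and 4 genes were followed in it by their hg19 positions: MTAP at 21.803 to 21.866 Mb, CDKN2A at 21.968 to 21.994 Mb, CDKN2B at 22.003 to 22.009 Mb and MLLT3 at 20.345 to 20.623 Mb. Hi-C cuts fixed chromatin with a restriction enzyme, ligates ends that were near each other, and the ligated pairs are counted by sequencing. In this study HindIII acted on K562 chromatin for 0.25, 1, 3 or 12 h, with 2 replicates per time, and all groups came from the same line, so digestion time is the only difference that the labels give between them. The files form 2 sets by sequencing run, and the deeper second run, in 20 kb bins, gave the values below unless the first run (50 kb bins) is named. The labels do not say whether both runs used the same libraries, so the first run may not be independent of the second. The labels do not say whether replicates were separate cultures, so p-values measure only the spread between these libraries.

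CDKN2A encodes the cell-cycle inhibitor p16INK4a and, from another first exon and reading frame, ARF, which stabilises p53. CDKN2B encodes p15INK4b, which like p16INK4a binds CDK4 and CDK6 and holds the retinoblastoma protein active. MTAP encodes methylthioadenosine phosphorylase, the enzyme that recycles methylthioadenosine from polyamine synthesis, and is often lost together with its neighbours in tumours. MLLT3 encodes AF9, a reader of acetylated histones in the super elongation complex and a fusion partner of KMT2A in leukaemia. In a contact map a stretch missing from a genome has no contacts, whereas sequences brought together by a rearrangement contact each other more than their distance on the reference would give.

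The second-run libraries held between 62777251 contacts (0.25 h replicate 2) and 176412222 contacts (12 h replicate 1), and depth rose with digestion time. Between 88.97% and 89.08% of the genome's bins were listed in a file. The sparsest listed bin of a library held 28 to 137 contacts, so an absent bin is one for which a file gives no value. Whether such a bin held no contact or was removed as too sparse is not given in the sources used here. The bin at 26740001 held 48 to 122 contacts in the 6 libraries of 0.25, 1 and 3 h and was absent from both 12 h libraries. A bin absent from a file can thus hold contacts in other libraries. HindIII sites per bin were not counted, so a bin without a site and a bin missing from the genome cannot be told apart. Intervals on contacts cover counting error only.

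Of the 800 bins, 446 (55.8%) were absent from all 8 libraries, against 10.7% of all bins of the genome and 9.07% of the autosomal ones. A further 352 bins were listed in all 8 libraries and 2 in some of them. The absent bins formed 2 long runs and 2 single bins. The longer run, called the first gap, covered 291 bins from 20.76 to 26.58 Mb (5.82 Mb), and the other, the second gap, covered 153 bins from 28.56 to 31.62 Mb (3.06 Mb). In the first sequencing run the gaps ran from 20.75 to 26.60 Mb and from 28.55 to 31.60 Mb. Among absent runs of the autosomes the first gap was the 9th longest and the second gap the 17th. Of the runs longer than the first gap, those of chromosomes 13, 14, 15, 21 and 22 began at base 1. Which of the other runs span a centromere was not examined. The ranks thus do not say how common such runs are inside chromosome arms.

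All 4 bins of MTAP, both bins of CDKN2A (2 of 2) and the bin of CDKN2B (1 of 1) were absent from every library of both sequencing runs. MTAP began 1043 kb inside the first gap, and 4571 kb of absent bins followed CDKN2B. MLLT3 lay on the other side of the edge: its 15 bins were listed in all 8 libraries, as were its 7 bins of 50 kb in the first run. The nearer end of the gene lay 137 kb before the gap. The files thus give no contact for 3 of the 4 genes, and the number of DNA copies was not measured directly. No bin between MTAP and CDKN2B was listed. In RefSeq's order of genes (GRCh38.p14, used for names and order only) the genes that begin there are the pseudogene TUBB8P1, CDKN2A-AS1, LOC124902130 and CDKN2B-AS1, the long noncoding RNA also known as ANRIL. That order goes by the lowest position of each gene, whatever its strand, so genes that lie within MLLT3 follow it. After MLLT3 and before MTAP it holds 48 genes, 19 of them protein-coding, of which 16 are type I interferon genes such as IFNB1, IFNE and IFNA1. No hg19 positions were used for these, so they were not assigned to bins.

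The transcription starts that the absent bins held, and that of MLLT3 which stayed listed, are shown by the 150 bases just before each start (RefSeq, GRCh38.p14, in gene direction, 5′ to 3′). All 4 genes matched an entry, and CDKN2A has 2 starts, the outer for ARF and the inner for p16INK4a. Capitals mark CG dinucleotides, the target of DNA methylation in mammals, which was not measured here. On the plus strand lies MTAP (chr9:21802486-21802635) and on the minus strand lie CDKN2A, ARF start (chr9:21995325-21995474), CDKN2A, p16INK4a start (chr9:21974858-21975007), CDKN2B (chr9:22009306-22009455) and MLLT3 (chr9:20622500-20622649).
MTAP: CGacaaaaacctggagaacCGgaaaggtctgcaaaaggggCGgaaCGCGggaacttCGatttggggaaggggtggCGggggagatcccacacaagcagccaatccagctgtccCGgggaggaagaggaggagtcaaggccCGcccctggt
CDKN2A, ARF start: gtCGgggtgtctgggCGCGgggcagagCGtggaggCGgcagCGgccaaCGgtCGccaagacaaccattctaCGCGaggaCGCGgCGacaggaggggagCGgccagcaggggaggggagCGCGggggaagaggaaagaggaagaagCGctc
CDKN2A, p16INK4a start: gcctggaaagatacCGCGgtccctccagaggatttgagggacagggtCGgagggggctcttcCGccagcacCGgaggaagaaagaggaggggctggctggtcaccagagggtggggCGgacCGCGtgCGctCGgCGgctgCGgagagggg
CDKN2B: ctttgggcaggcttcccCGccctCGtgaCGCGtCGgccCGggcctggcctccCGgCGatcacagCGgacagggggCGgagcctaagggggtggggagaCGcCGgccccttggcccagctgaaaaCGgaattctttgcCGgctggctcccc
MLLT3: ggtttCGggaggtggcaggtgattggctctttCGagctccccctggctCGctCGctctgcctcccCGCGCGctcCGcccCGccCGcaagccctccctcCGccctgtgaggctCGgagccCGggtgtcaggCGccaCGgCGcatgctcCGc
The 150 bases held 9 CG in MTAP, 17 and 12 at the outer and inner starts of CDKN2A, 14 in CDKN2B and 17 in MLLT3. Over 250 bases the counts were 11, 24, 20, 18 and 24 in the same order, and the median over 35116 promoters was 11. The HindIII recognition site AAGCTT, which reads alike on both strands, was in none of the 5 windows of 300 bases and in 5.84% of all such windows. This says only that those letters are not in these windows.

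The gaps divided the stretch into 3 listed segments, called distal (18 to 20.76 Mb, 137 bins listed in all libraries, with MLLT3), middle (26.58 to 28.56 Mb, 98 bins) and proximal (31.62 to 34 Mb, 117 bins). Contacts with other chromosomes gave their level, as the median bin of a segment over the autosomal median of the same library. The distal segment was at 0.958 ± 0.0218 (SD, n = 8), the middle at 0.843 ± 0.022 and the proximal at 1.02 ± 0.0321. The bins of MLLT3 were at 1.13 ± 0.0644. The rest of the arm, from 0 to 18 Mb, was at 0.997 ± 0.0133. The middle segment, between the gaps, was thus the lowest, from 0.8 to 0.87, and did not overlap the other 2 segments in any library. With all contacts between different bins counted, the levels were lower, at 0.675, 0.509 and 0.480, with the proximal segment lowest. On that measure MLLT3 was at 0.713, the rest of the arm at 0.753 and the long arm from 72 Mb at 0.794. Levels below 1 were thus not particular to the 3 segments. Number of DNA copies and contact frequency cannot be told apart in such levels.

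**Figure D1:**
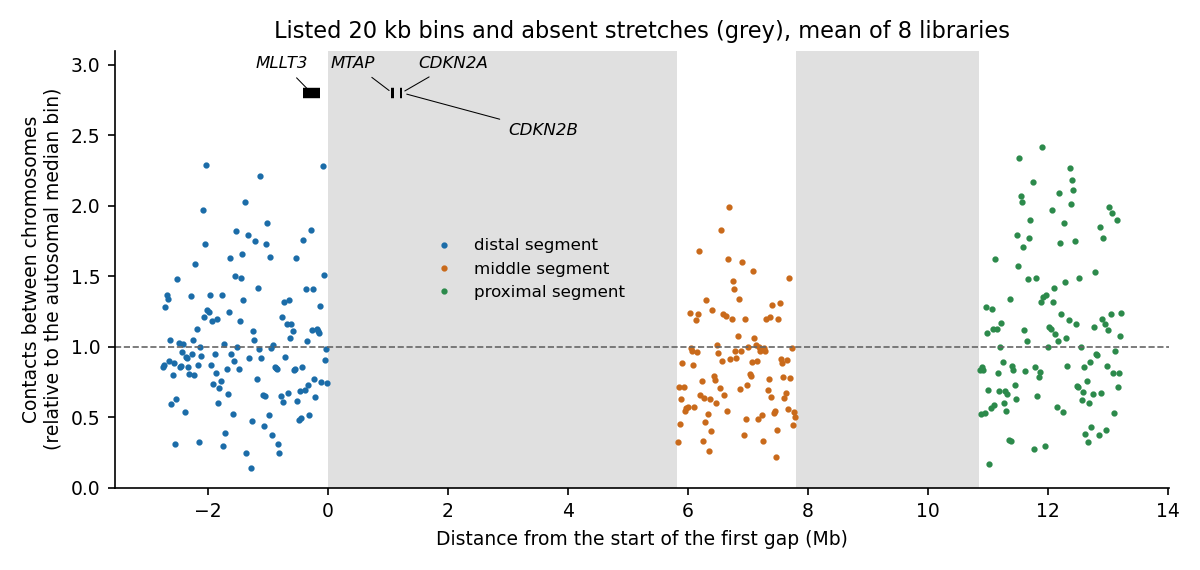
Contacts of each listed 20 kb bin with other chromosomes, as a multiple of the autosomal median bin (mean of 8 libraries), against distance from the start of the first gap in Mb; grey marks the 2 absent runs and black bars the 4 genes. MTAP, CDKN2A and CDKN2B lie inside the first gap, while MLLT3 lies before it among bins whose median level was 1.13.

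No contact joined the bins next to the first gap on its 2 sides. Between the 200 kb on either side of it, 0 contacts were found in each of the 8 libraries, where pairs of autosomal bins at that distance gave an expectation of 50 in all (3.18 to 8.99 per library). With 400 kb on either side there were again 0, against 259 expected. By the usual rule a count of 0 allows up to 3 contacts, or 0.0116 of the expectation, and the two-sided 95% Poisson limit used for the intervals below is 3.69 contacts. Observed over expected here is the balanced signal over the mean signal of all autosomal pairs at the same distance in the same library.

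Over whole segments the picture was nearly as empty. Distal and middle shared 89 contacts in all libraries (95% Poisson interval 71.5 to 110) against 7284 expected, and observed over expected ran from 0.00411 to 0.0183 over the libraries. Distal and proximal shared 144 contacts (121 to 170) against 5433, from 0.0201 to 0.0341. MLLT3 and the middle segment shared 6 contacts (2.2 to 13.1) against 1004, and 4 of the 8 libraries had none. These levels were close to those between different chromosomes: relative to the contacts expected if both segments met at the rate seen between chromosomes (from their totals of contacts with other chromosomes), distal with middle was at 0.79 ± 0.175 (SD, n = 8) and distal with proximal at 0.854 ± 0.116, although the segments share an arm on the reference. Middle with proximal, across the second gap, was at 571 ± 37.3 on that scale.

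Pairs of 100 kb blocks were counted as well. None of the 1232 pairs across the first gap reached an observed over expected of 2 in all 8 libraries. Of autosomal pairs at those distances 0.103% did, so a count of 0 lies near that share and does not set these pairs apart. In 1023 pairs no library had a contact, and the share of autosomal pairs without any was not computed. The highest mean of a pair, 0.573 ± 1.62 (SD, n = 8), belonged to 19.7-19.8 with 33.4-33.5 Mb and rested on 1 library, at 4.59, the other 7 being at 0. In 500 kb blocks, 23 of 24 distal-middle pairs were at or below 0.1 in all libraries, against 0.0279% of autosomal pairs at those distances. Of the distal-proximal pairs 17 of 30 were, against 0.117%. Of the middle-proximal pairs 0 of 20 were, against 0.0204%.

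**Figure D2:**
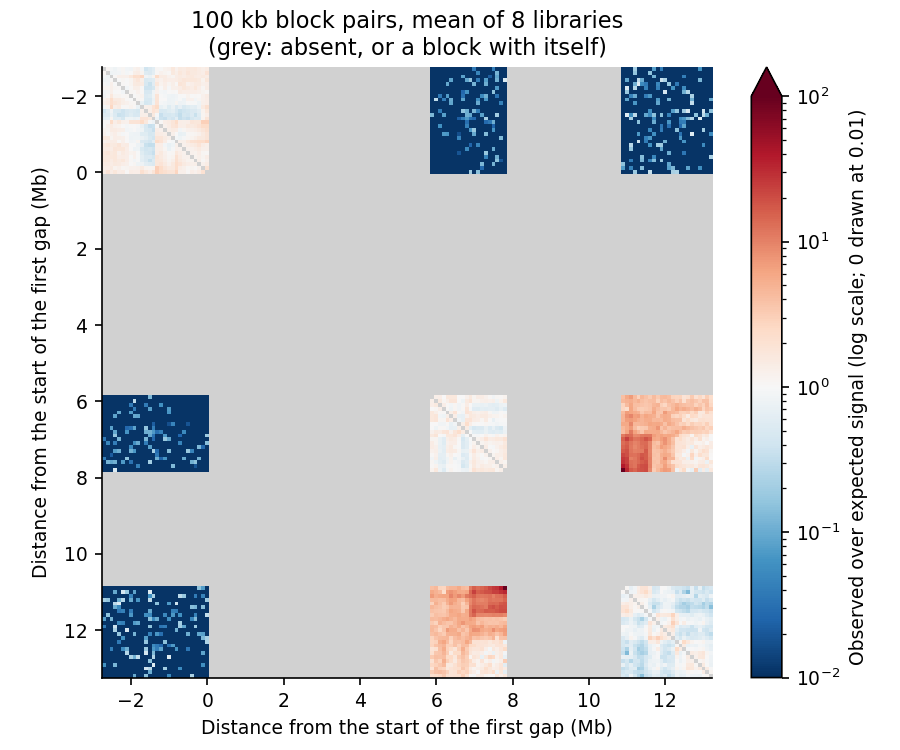
Observed over expected signal of pairs of 100 kb blocks (colour, log scale, mean of 8 libraries), with both axes in Mb from the start of the first gap and grey for absent bins. The distal segment is blue against both other segments, and middle with proximal is red, most at the corner where the edges of the second gap meet (116 for the corner pair).

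Across the second gap the 2 sides were in frequent contact. The 200 kb flanks shared 4049 contacts (3925 to 4176) against 105 expected. After 0.25 h of digestion observed over expected was 39.3 in replicate 1 and 36.2 in replicate 2, after 1 h 43.3 and 39.7, after 3 h 44.7 and 40.5, and after 12 h 46.0 and 44.1, with a mean of 41.7 ± 3.33 (SD, n = 8). All 8 libraries lay far above 1, and replicate 2 was the lower of the pair at every time. On recovered whole contacts, with no balancing, the mean log2 value was 3.65 in place of 5.38, so the size differed with the balancing and both values were above 0, and the cause was not tested. These flank measures were applied to the second gap after the first was seen to hold none.

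Of the 480 pairs of 100 kb blocks across the second gap, 209 (43.5%) reached 2 in all 8 libraries, against 0.525% of autosomal pairs at those distances. With whole contacts 105 did and in the first run 83. The share of autosomal pairs under those 2 settings is not given here, so these counts cannot be set against it. The highest pair was 28.5-28.6 with 31.6-31.7 Mb, the blocks at the 2 edges, at 116 ± 12.6 (SD, n = 8). On the balanced signal, the highest single pair of 20 kb bins within 400 kb of the gap was the last bin before it (28.54 Mb) with the first bin after it (31.62 Mb) in all 8 libraries. In replicates 1 and 2 that pair held 47 and 19 contacts after 0.25 h, 56 and 33 after 1 h, 64 and 31 after 3 h, and 60 and 48 after 12 h, with observed over expected between 380 and 600. On that signal the bins that met most were thus those next to the absent run on either side. Balancing raised the pair, from 47 contacts to a signal of 207 in 0.25 h replicate 1. The order of pairs on whole contacts is not given here.

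With the second gap taken out of the distance, observed over expected between the flanks was 1.25 to 1.37. The flank signal equalled that of autosomal pairs 0.103 to 0.115 Mb apart, while the flanks lie 3.26 Mb apart on the reference and 0.2 Mb apart with the gap taken out. On whole contacts the mean was 0.421 Mb in place of 0.108 Mb. Signal in a 200 kb square over the joined edges, relative to squares along the joined map, had a log2 value between 0.12 and 0.27. On whole contacts that mean was -0.22, so the joined edge was neither clearly above nor clearly below its surroundings.

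**Figure D3:**
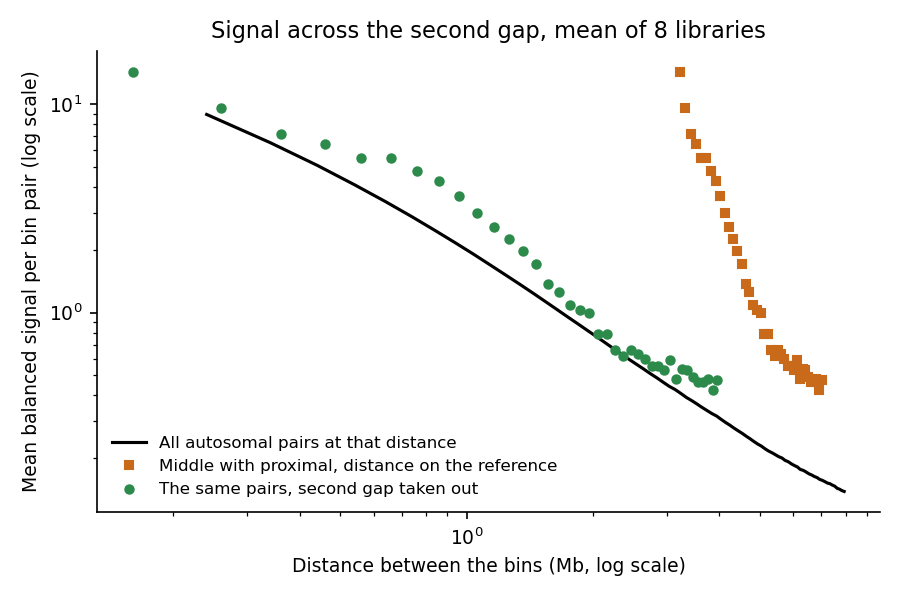
Mean balanced signal per bin pair (log scale) against distance in Mb (log scale), for all autosomal pairs (line) and for middle-proximal pairs at their reference distance (squares) or with the second gap taken out (circles); mean of 8 libraries. The squares lie above the line throughout, and near the edges the circles lie close to it, as in the values of 1.25 to 1.37.

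The other edge of the middle segment, beside the first gap, also contacted bins farther along the arm. The block described, 38 to 38.5 Mb, was picked after its values were seen, so they are a description. The first 200 kb of the segment (from 26.58 Mb) shared 3771 contacts (3652 to 3893) with 38 to 38.5 Mb, against 88.2 expected. Observed over expected after 0.25 h was 46.1 and 42.1, after 1 h 47.8 and 41.9, after 3 h 47.7 and 47.8, and after 12 h 49.3 and 47.0, with a mean of 46.2 ± 2.74 (SD, n = 8). Above expectation in all 8 libraries too was the block at 37 to 37.5 Mb, at 7.43 ± 1.39 (SD, n = 8) with the same 200 kb, from 884 contacts against 124 expected. On the balanced signal, the highest pair of bins was the edge bin itself (26.58 Mb) with 38.42 Mb in 7 libraries and with 38.40 Mb in 1 h replicate 1. The pair held 24 to 43 contacts in the 7 libraries and 6 contacts in 1 h replicate 1. The edge bin is sparse, with 114 to 364 contacts per library, and balancing raises the signal of sparse bins. The same block of 38 to 38.5 Mb gave 2.72 ± 0.328 with the other end of the middle segment, 2.2 ± 0.497 with the near end of the proximal segment and 0.0312 ± 0.0489 with the last 200 kb of the distal segment. The bins that follow the first gap thus contacted 38 to 38.5 Mb, and the bins before the gap, on the side of MLLT3, did not do so above expectation.

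Contacts with other chromosomes also differed between the sides of the first gap. Each segment was set against 5458 blocks of 500 kb on other chromosomes, and a block was counted when observed over expected, here relative to the product of both sides' totals of contacts between chromosomes, was at least 4 in all 8 libraries. The distal segment had 51 such blocks (0.934%), 42 of them on chromosome 17. The middle segment had 68 (1.25%), 66 of them on chromosome 13, and the proximal segment 78 (1.43%), 73 of them on chromosome 13. MLLT3 alone had 29 (0.531%), 20 of them on chromosome 17.

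Over whole chromosomes the distal segment was at 5.38 ± 0.0997 (SD, n = 8) with chromosome 17, and MLLT3 at 4.89 ± 0.325. The middle and proximal segments were at 6.21 ± 0.114 and 6.37 ± 0.176 with chromosome 13. The blocks named next, and those of chromosomes 4 and 21 further on, were taken from the blocks counted above. High values for a segment in all libraries were thus part of how they were picked, and the values are a description. The libraries did not overlap between the sides: with the block of chromosome 13 at 20 to 22 Mb the middle segment ran from 15 to 20.4 and the proximal from 27 to 37, while MLLT3 ran from 0 to 2.83. With chromosome 17 at 25 to 26.5 Mb MLLT3 ran from 20.4 to 28.4, the middle segment from 0.626 to 0.993 and the proximal from 0.827 to 1.26. MLLT3 and the segments beyond the gap thus differed in these blocks of chromosomes 13 and 17 in all 8 libraries, while the block of chromosome 21 at 11 to 11.5 Mb was at 4 or more in all 8 libraries for MLLT3 and for the distal, middle and proximal segments.

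The block with the highest observed over expected for both MLLT3 and its segment was at 49.0 to 49.5 Mb of chromosome 4, although the block of chromosome 21 at 11 to 11.5 Mb shared more contacts with each (616 against 372 for MLLT3 and 2288 against 1262 for the segment). With it MLLT3 stood at 115 and 93.3 after 0.25 h, 143 and 105 after 1 h, 141 and 133 after 3 h, and 141 and 160 after 12 h, from 372 contacts in all. Along the distal segment the value was 15.6 ± 5.1 (SD, n = 8) for 18 to 19 Mb, 39.1 ± 5.72 for 19 to 20 Mb and 114 ± 21.6 from 20 Mb to the gap, and these did not overlap. It was thus highest in the part from 20 Mb to the gap, which includes the bins of MLLT3, whose values overlapped those of that whole part. Middle and proximal segments were at 1.33 ± 0.858 and 1.67 ± 1.02. The block ends close to an absent run of chromosome 4 that begins at 49640001. An absent run of chromosome 21 begins at 11180001, inside its block at 11 to 11.5 Mb. On chromosome 17 an absent run ends at 25260000, inside the block at 25 to 26.5 Mb. The part of repeated sequence was not tested for any of these blocks.

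With chromosome 21 at 9.5 to 11.5 Mb the distal segment showed the same order, 7.83 ± 1.03 (SD, n = 8) for its far part, 14.2 and 28.1 toward the gap, and MLLT3 was at 30.5. That block also contacted the middle segment at 5.85 and the proximal at 12.7, so it was not particular to one side. With chromosome 17 at 25 to 26.5 Mb the order was another: 23, 45.7 and 30.2 along the distal segment and 24.2 for MLLT3, the highest value being in the 19 to 20 Mb part.

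**Figure D4:**
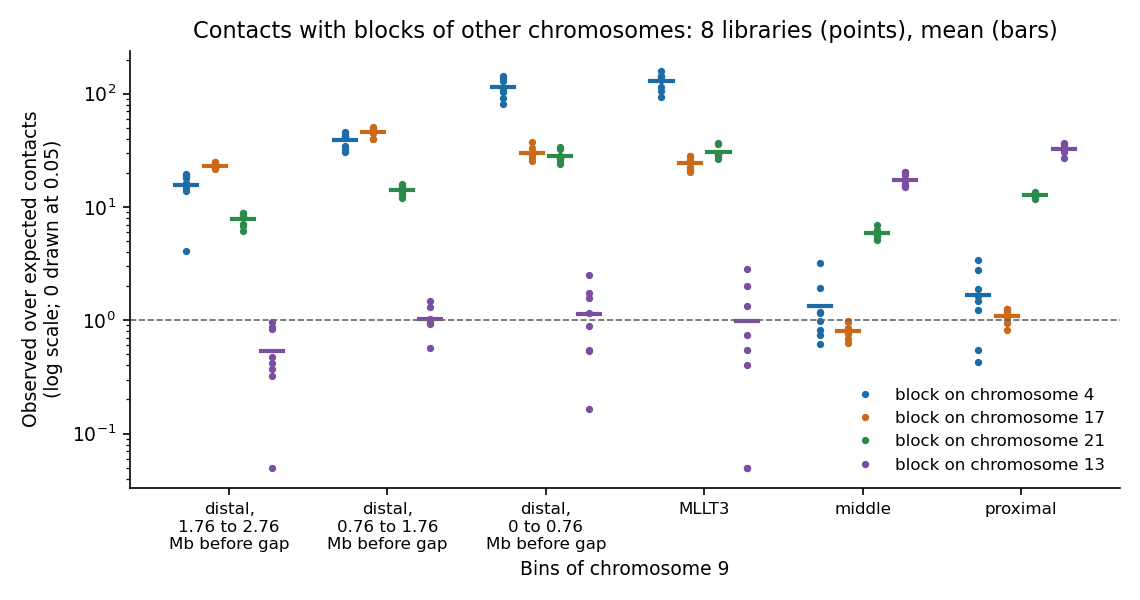
Observed over expected contacts (log scale) of parts of the distal segment, MLLT3, the middle and the proximal segment with blocks on chromosomes 4, 17, 21 and 13; points are the 8 libraries and bars their mean. Values with the chromosome 4 block climb from 15.6 to 114 toward the gap, and values with the chromosome 13 block are high in the middle and proximal segments alone among the parts plotted. The blocks were picked for high values with a segment.

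On its own side MLLT3 contacted its arm somewhat above expectation, and so did the 2 ends of its segment with each other. With the 2 Mb before it (toward the telomere) observed over expected after 0.25 h was 1.34 and 1.29, after 1 h 1.28 and 1.36, after 3 h 1.35 and 1.29, and after 12 h 1.35 and 1.33, with a mean of 1.32 ± 0.0327 (SD, n = 8). The first 1 Mb of the distal segment with its last 1 Mb, which includes MLLT3, was at 1.23 ± 0.0482 (SD, n = 8). That pair ran from 1.16 to 1.32 over the libraries and overlapped the values of the gene, so the excess was not particular to it. Of 788 pairs of the 4 blocks of 100 kb that hold the gene with blocks toward the telomere, 0 reached 2 in all 8 libraries. Of autosomal pairs at those distances 0.423% did, so the 0 does not set the gene apart. With the gene taken whole, the median over 197 such blocks was 1.48. The block with the highest mean, at 1.3 to 1.4 Mb, had 3.21 ± 1.04 from 48 contacts and ran from 1.49 to 4.53.

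Digestion time was then examined, the variable of the study. Log2 observed over expected between the flanks of the second gap had a mean of 5.24 after 0.25 h, 5.37 after 1 h, 5.41 after 3 h, and 5.49 after 12 h. Spearman's rho with log2 hours was 0.878 (two-sided exact permutation p = 0.0103, adjusted p = 0.0516 over the 5 trends computed) and Pearson's r 0.831 (exact permutation p = 0.0127). Without the 0.25 h libraries r was 0.647 and without the 12 h libraries 0.734. The change of 0.26 was small beside the value itself, and with the gap taken out of the distance rho was 0.488 (exact permutation p = 0.247). Libraries also gained depth with time, and its part was not tested.

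The other trends were no clearer. For the edge of the middle segment with 38 to 38.5 Mb rho was 0.586 (exact permutation p = 0.153, adjusted p = 0.255) and r 0.641 (exact permutation p = 0.0873). For the distal bins from 20 Mb with the chromosome 4 block rho was 0.781 (exact permutation p = 0.0349, adjusted p = 0.0873) and r 0.8 (exact permutation p = 0.0198). For MLLT3 with the 2 Mb before it rho was 0.146 (exact permutation p = 0.761, adjusted p = 0.761). No trend passed an adjusted p of 0.05 with times permuted freely. With times permuted within replicate numbers (a replicate block) the trend across the second gap did, with an exact permutation p of 0.00347, the smallest that 576 arrangements can give, and 0.0174 after adjustment over the 5 trends, and the other 4 did not (adjusted p = 0.122 to 0.764, exact permutation). Permuted freely, the same trend was not called on whole contacts (rho 0.244, exact permutation p = 0.586), in the first sequencing run (rho 0.244, exact permutation p = 0.586) or with 100 kb flanks (rho 0.39, exact permutation p = 0.361), while with 400 kb flanks rho was 0.927 (exact permutation p = 0.00317).

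**Figure D5:**
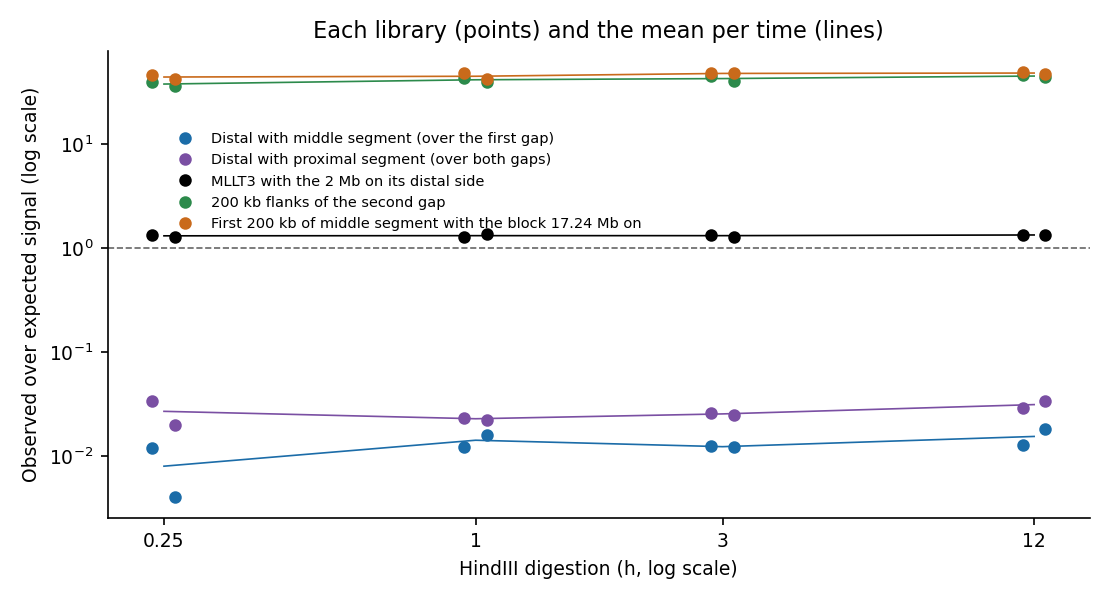
Observed over expected signal (log scale) in each library (points) and its mean per time (lines) against hours of HindIII digestion (log scale), for the segments, MLLT3 and the gap edges. Distal with middle lies at or under 0.0183 at every time, MLLT3 with its own side near 1.32, and the edges of the second gap and of the middle segment above 36.

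Coverage of single bins did change with digestion time, in these bins as elsewhere. Contacts of each bin with other bins were compared between 0.25 and 12 h by limma on log2 contacts scaled to the library total over all 137198 bins of autosomes and X. Of the 352 listed bins of the stretch 145 changed (41.2%), against 55.8% of all bins tested: 46 were higher at 0.25 h and 99 lower, where 20.9% and 35% of all bins were. Scaled by median ratios instead of totals, which shifts the median of all bins from -0.05 to 0.00, the split was 72 higher to 71 lower. Over all bins it was 38542 to 37943, so both splits were near even. Without 12 h replicate 2 the count was 82 (23.3%), against 40.2% of all bins in the same fit, and with contacts between chromosomes only it was 9 of 352 (2.56%), against 6.24% of all bins.

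By segment, 48 of 137 distal bins were lower at 0.25 h and 9 higher, 27 of 98 middle bins were higher and 3 lower, and 48 of 117 proximal bins were lower and 10 higher. The median log2 change was -0.09, 0.07 and -0.10, beside -0.05 for all bins tested. Over all bins tested 20.9% were higher and 35% lower, and the differences of the segments from these shares were not tested. In MLLT3 3 of 15 bins changed (1 higher, 2 lower), where 55.8% of all bins did. The bin at 20580001 to 20600000 was higher at 0.25 h, with a log2 change of 0.42 (SE 0.073, limma adjusted p = 4.26e-05). Unscaled, replicates 1 and 2 counted 876 and 447 contacts there after 0.25 h, 948 and 550 after 1 h, 1130 and 742 after 3 h, and 1188 and 896 after 12 h, in libraries whose depth also grew. The bins at 20340001 and 20360001, at the end of the gene away from the gap, were lower, with log2 changes of -0.11 (SE 0.044, limma adjusted p = 0.0351) and -0.27 (SE 0.064, limma adjusted p = 0.00104).

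Of the bins at the gap edges, the last distal bin (20740001) was lower at 0.25 h, with a log2 change of -0.27 (SE 0.078, limma adjusted p = 0.00524), and the first proximal bin (31620001) was higher by 0.16 (SE 0.068, limma adjusted p = 0.044). The edge bins of the middle segment, at 26580001 and 28540001, had changes of -0.09 and -0.01 that missed the threshold (limma adjusted p = 0.545 and 0.907). The largest changes of the stretch were 0.61 (SE 0.064) for 27480001 in the middle segment and -0.65 (SE 0.13) for 32520001 in the proximal one. None of the 5 largest in either direction was an edge bin.

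The other rises among the 5 largest were 0.42 in MLLT3, 0.38 at 19220001, 0.36 at 27520001 and 0.34 at 27620001, and the other falls were -0.53 at 33320001, -0.52 at 33400001, -0.50 at 19460001 and -0.49 at 33240001. At 2 decimals the bin at 19760001 in the distal segment had the same value of -0.49.

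Contacts with both ends in the same 20 kb bin, called self contacts, made up more of a bin's contacts after short digestion. The share, tested by limma on the log2 odds, was higher at 0.25 h than at 12 h in 243 of the 352 bins (69%) and lower in 0, where 64.9% of all bins tested changed, 64.7% higher and 0.147% lower. With the offset scaled to depth it was higher in 231 (65.6%), where 63% of all bins changed, 85919 of them higher and 567 lower. Without 0.25 h replicate 1 it was higher in 237 and lower in 7, where 1127 of all bins tested were lower. The 4 bins of the stretch with no self contact in any library include 3 of the 243, whose call comes from the offset alone. The median share at 0.25 h and at 12 h was 9.15% and 4.82% in the distal segment, 10.4% and 5.35% in the middle, 8.53% and 4.27% in the proximal, and 7.62% and 4.23% over all bins tested.

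In MLLT3 11 of 15 bins had a higher share at 0.25 h, and of the 11 with at least 50 self contacts on average 10 did, where 90.4% of all bins under that filter changed. The bin at 20580001 held 33.8% and 47.3% self contacts after 0.25 h, 28.3% and 32.5% after 1 h, 25.8% and 28.3% after 3 h, and 13% and 10.4% after 12 h. Its log2 odds changed by 2.36 (SE 0.25, limma adjusted p = 4.82e-05), the most in the gene after the 2.41 (SE 0.48) of the sparser bin at 20440001. The bin at 20600001 next to it did not pass, with 5.02% at 0.25 h and 4.40% at 12 h (change 0.18, SE 0.21, limma adjusted p = 0.469). Neighbouring bins of the gene thus differed in how far their share moved.

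At the edges of the gaps the first proximal bin (31620001) went from 14.9% and 21.7% at 0.25 h to 5.2% and 6.36% at 12 h (change 1.84, SE 0.21, limma adjusted p = 6.01e-05). The last middle bin (28540001) had means of 2.64% at 0.25 h and 1.28% at 12 h (limma adjusted p = 0.0397). The first middle bin and the last distal bin missed the threshold (limma adjusted p = 0.113 and 0.31). The largest changes of share were 4.06 at 32380001 and 3.96 at 18600001, where the share was 22.1% and 30.8% at 0.25 h and 1.5% and 2.65% at 12 h.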

How the data were processed

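Hi-C libraries of K562 cells were analysed from the deposited files, which list pairs of 20 kb bins (second run, 8 libraries) or 50 kb bins (first run, 8 libraries) with a balanced contact signal made by the authors. Per the submitters' processing notes, HiC-Pro 2.11.1, Bowtie2 2.3.4.1 and build hg19 were used. The filter that removes sparse bins is not given in the sources used here. Balancing equalises bins, so whole contacts were recovered by dividing the deposited signal by the factors of both bins, and every listed pair came within 0.01 of a whole number. Totals ran from 62777251 to 176412222 contacts in the second run and from 8918994 to 20237350 in the first.

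Observed over expected used bins listed in all 8 second-run libraries. Bins were tested with limma 3.58.1 (R 4.3.3) with a trend on mean level, over bins with a mean of at least 50 contacts, an offset of 0.5 and Benjamini-Hochberg adjustment over all bins. Trends used exact permutation over 40320 arrangements. Recovery, expectation and limma were tested on simulated data. Named bins were those next to a gap, those of the 4 genes and the 5 called bins with the largest change in each direction; named block pairs were the highest across each gap. Members and lists were chosen with earlier results of these data known. Measures planned for the longest gap could not be computed where its flanks shared 0 contacts and were applied to the second gap after the data were seen.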

Additional observations from a re-analysis of the deposited data

How the results depend on the processing

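The log2 observed over expected across the second gap (5.38) was 3.65 on whole contacts, 5.24 with the expectation from chromosome 9 alone, 6.28 with 100 kb and 4.52 with 400 kb flanks, and 5.36 to 5.41 with one library left out. The matching distance (0.108 Mb) was 0.421, 0.114, 0.0573 and 0.244 Mb under the same 4 settings, and 0.107 to 0.109 with one library left out. Signal over the joined edge (log2 0.20) was 0.31 in a 500 kb square and reversed to -0.22 on whole contacts, with 0.19 to 0.21 leaving one library out. The 209 block pairs became 105 on whole contacts and 83 in the first run, and 211 to 227 with one library left out, where fewer libraries have to pass. The autosomal share under these settings is not given here, so the counts cannot be set against it. The 0 block pairs across the first gap stayed 0 in all 13 alternatives, and a count of 0 lies near the autosomal share of 0.103% in the main setting. The trend across the second gap (rho 0.878) was 0.488 at the joined distance, 0.244 on whole contacts, 0.39 with 100 kb flanks and 0.244 over the first-run libraries (exact permutation p = 0.247, 0.586, 0.361 and 0.586), but 0.927 with 400 kb flanks and 0.878 with the expectation from chromosome 9 (exact permutation p = 0.00317 and 0.0103), and 0.826 to 0.918 with one library left out. With times permuted within replicate numbers (a replicate block) its exact permutation p was 0.00347 (adjusted 0.0174), which passes where the free permutation (adjusted 0.0516) does not.

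Levels of distal, middle and proximal segments were 0.675, 0.509 and 0.480 on all contacts and 1.02, 0.899 and 1.08 over the median of chromosome 9. With one library left out they were 0.953 to 0.963, 0.84 to 0.85 and 1.01 to 1.03. Absent bins were 446, 448 when absent from at least 1 library, and 445 as 20 kb bins of length in the first run. Changed bins of the stretch (145) were 9 with contacts between chromosomes only and 82 to 152 with one library left out, the 82 without 12 h replicate 2. Bins with a changed self-contact share (243) were 202 to 244 with one library left out, the 244 without 0.25 h replicate 1, of which 7 were lower at 0.25 h. Bins with at least 50 self contacts on average, a filter chosen after the data were seen, gave 183 of 195 (93.8%), against 90.4% of all such bins. The cause of these shifts was not tested.

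The labels do not say that replicate numbers pair libraries: same-numbered libraries of different times had correlated deviations of 0.11 to 0.254 over bins, and with 2 replicates one number mirrors the other. With the replicate block 157 bins of the stretch (44.6%) changed in contacts, against 60.4% of all bins. In self-contact share 243 (69%) changed, against 65.9%. The log2 value, trend, distance and joined-edge signal were not computed for the first gap, whose flanks shared 0 contacts. Depth limits the 8 libraries there to 3.18 to 8.99 expected contacts each between the 200 kb flanks.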
